A study of Homo sapiens with 4 samples.

Results

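The 8 genes described here belong to a pair of neighbouring families on the human X chromosome, the BEX genes (BEX1, BEX2, BEX3, BEX4 and BEX5) and the TCEAL genes TCEAL4, TCEAL8 and TCEAL9. They were found by symbol in a table of 16057 genes, and all 8 symbols had a row. The set was chosen by the measured difference between JG342 and DMSO, in which BEX2 was among the largest rises, so the JG342 against DMSO values of the members are a description and no test of them is given. All samples were MM.1S cells, an established human multiple myeloma line kept in culture. One group received 350 nM of JG342, a compound that inhibits HSP70 chaperones at an allosteric site, and the other received the solvent DMSO; both were collected after 26 h. Each group had 2 libraries, described by the submitters as biological duplicates of this single line, and transcripts were measured by RNA sequencing as TPM, a relative abundance corrected for transcript length.

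BEX genes, short for brain expressed X-linked, encode small and largely unstructured proteins that are known mainly from neurons and endocrine tissue. BEX1 and BEX3 bind the neurotrophin receptor NGFR, through which BEX3 was first described as a cell death factor, BEX2 has been found in a complex with the transcription factor LMO2, and BEX4 binds tubulin. TCEAL genes are named for their likeness to the transcription elongation factor TFIIS, and TCEAL9 is also known as WBP5, a protein that binds WW domains. In placental mammals both families lie together with the ARMCX and GPRASP genes in a cluster formed by duplication, and a short shared promoter element has been described for the BEX, TCEAL and GPRASP families.

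The sequences just before the start sites show which members resemble each other in sequence. Expression values had already chosen the set and the members shown at greater length. They come from the RefSeq promoter table for GRCh38.p14, in which all 8 members were matched by symbol, with 12 windows in all because BEX3 had 3 starts and BEX4 and BEX5 had 2 each. Capitals mark the letters CACGTG, a palindrome that is a common binding sequence of basic helix-loop-helix factors; it was chosen after the sequences had been seen. For BEX2 and BEX4, the members with the largest rises among those above 0 in all 4 libraries, the 250 bases before the start are given. BEX2 is at chrX:103310991-103311240 on the minus strand and BEX4 at chrX:103214858-103215107 on the plus strand.
BEX2: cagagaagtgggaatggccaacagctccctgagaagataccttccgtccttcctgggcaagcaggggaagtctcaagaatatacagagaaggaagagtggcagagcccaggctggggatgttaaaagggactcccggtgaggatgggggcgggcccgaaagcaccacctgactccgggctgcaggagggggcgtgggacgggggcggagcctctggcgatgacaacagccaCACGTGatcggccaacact
BEX4: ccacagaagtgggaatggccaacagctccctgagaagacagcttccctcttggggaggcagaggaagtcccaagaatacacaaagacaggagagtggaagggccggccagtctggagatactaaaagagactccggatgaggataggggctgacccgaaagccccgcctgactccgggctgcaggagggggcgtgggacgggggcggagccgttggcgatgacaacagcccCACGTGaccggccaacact

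Aligned end to end, these sequences were identical at 214 of 254 aligned columns (84.3%), with an unbroken shared run of 45 bases. CACGTG began 19 bases before the start used here in both, and 3 bases before the other BEX4 start. Of the 28 pairs among the members, BEX2 and BEX4 were the most alike. The BEX1 and BEX3 pair came next, with 69.8% identity and a shared run of 35 bases, and the remaining 26 pairs lay between 41.7% and 56.4%. For the other members the last 90 bases before the start are shown, so that the surroundings of the same letters can be compared.
BEX1: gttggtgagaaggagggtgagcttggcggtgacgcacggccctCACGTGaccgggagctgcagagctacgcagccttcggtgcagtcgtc
BEX3: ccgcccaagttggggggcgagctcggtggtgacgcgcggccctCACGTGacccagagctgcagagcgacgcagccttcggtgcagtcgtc
TCEAL4: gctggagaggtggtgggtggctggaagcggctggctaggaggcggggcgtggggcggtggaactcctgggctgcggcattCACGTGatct
TCEAL8: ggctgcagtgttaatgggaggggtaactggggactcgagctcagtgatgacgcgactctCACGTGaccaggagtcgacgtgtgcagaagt
BEX5: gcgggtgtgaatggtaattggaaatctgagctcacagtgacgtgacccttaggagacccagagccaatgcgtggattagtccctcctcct
TCEAL9: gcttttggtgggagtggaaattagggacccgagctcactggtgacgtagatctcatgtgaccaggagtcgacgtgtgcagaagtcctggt

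These stretches are chrX:103064172-103064261 (BEX1, minus strand), chrX:103376448-103376537 (BEX3, plus strand), chrX:103585425-103585514 (TCEAL4, plus strand), chrX:103255156-103255245 (TCEAL8, minus strand), chrX:102155978-102156067 (BEX5, minus strand) and chrX:103356416-103356505 (TCEAL9, plus strand). CACGTG was found in 7 of the 12 windows, which belonged to 6 of the 8 members, in windows of 300 bases that reach 250 bases before and 50 after a start. Both BEX4 windows overlap and hold the same site, so it is counted in each. Of all 35116 such windows, 7.26% hold these letters. BEX5 and TCEAL9 had none in their windows, and BEX3 and TCEAL8, which had them, overlapped between treatments. Among fitted genes with a promoter window, limma called higher 9.42% of those with CACGTG and 10.6% of those without. Whether CACGTG bears on the members' values was not tested. The letters TGATGNAA, the core of the element bound by ATF4 with C/EBP factors, were searched on both strands and were in no member's window, against 3.62% of all windows. TGATGCAA, a stricter spelling that is a subset of it, was likewise in none, against 0.866% of all windows. With shares this low, finding neither in 12 windows says little about the members, and bases outside the windows were not searched.

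In DMSO the cluster was dominated by TCEAL genes. TCEAL8 was highest at 54.5 and 56.5 TPM, followed by TCEAL4, BEX5, TCEAL9 and BEX2, and the ranges of neighbours in this order did not overlap between libraries. BEX3, at 5.15 and 6.78 TPM, and BEX4, at 5.82 and 3.87 TPM, overlapped and could not be ordered. BEX1 was last and near the limit of detection. After JG342 the order was BEX2, TCEAL4, TCEAL8, BEX5, BEX4 and TCEAL9, again with no overlap between neighbours, and then BEX1 and BEX3, which overlapped.

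**Figure D1:**
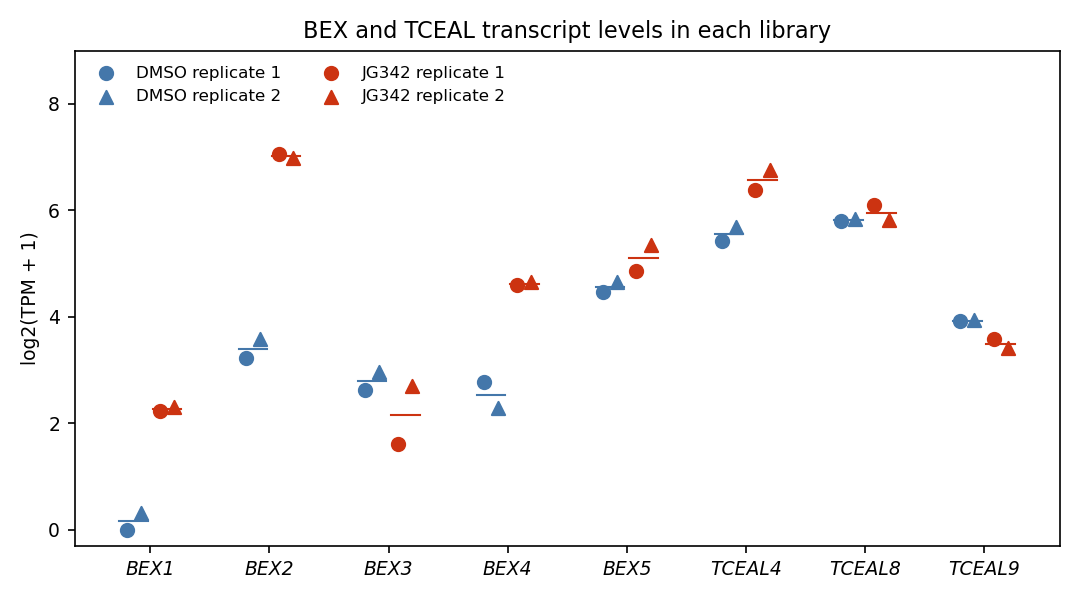
Level of each BEX and TCEAL gene as log2(TPM + 1) on the vertical axis, with 1 point per library (blue DMSO, red JG342; circles replicate 1, triangles replicate 2) and a line at each group mean. BEX2 moved from between 8.36 and 10.96 TPM to between 125.6 and 132.4 TPM, whereas the TCEAL8 and BEX3 libraries overlapped between treatments.

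Among the 5 BEX genes the levels of BEX2, BEX4 and BEX1 were far apart between treatments, BEX5 differed less, and BEX3 overlapped. Fold changes below are differences of log2(TPM + 1), JG342 minus DMSO, with the standard error (SE) of the limma fit over the 12042 genes whose mean reached 1 TPM; all 8 members were in that fit. BEX1 entered it only through its JG342 libraries, so its inclusion already required a difference.

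BEX2 (NM_001168399), the partner of LMO2 complexes, measured 8.36 and 10.96 TPM in DMSO replicates 1 and 2 and 132.4 and 125.6 TPM in JG342 replicates 1 and 2. Both JG342 libraries were more than 10 times above either DMSO library, and they differed little from each other. The means were 9.66 ± 1.84 TPM (SD, n = 2) and 129 ± 4.83 TPM, a ratio of 13.4 and a log2 fold change of 3.62 ± 0.14 SE. At the pseudocount of 1 TPM 3 fitted genes had a larger value, against 6 at 0.5 TPM and 13 at 0.1 TPM, where BEX2 was at 3.74. The rise was 3.83 between the libraries numbered 1 and 3.40 between those numbered 2.

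BEX4 (NM_001080425), the tubulin-binding member, measured 5.82 and 3.87 TPM in DMSO and 23.2 and 24.1 TPM in JG342. The groups were well separated, and the DMSO libraries, not the JG342 libraries, carried most of the spread. The ratio of means was 4.88 and the log2 fold change 2.10 ± 0.18 SE, the 48th largest of the fitted genes at a pseudocount of 1 TPM.

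BEX1 (NM_018476), which binds NGFR, was listed at 0 and 0.25 TPM in DMSO and at 3.69 and 3.96 TPM in JG342. By an estimate from the steps between low values, these correspond to about 0 and 1 reads in DMSO and 14 and 17 reads in JG342. Its log2 difference of 2.11 ± 0.22 SE holds for a pseudocount of 1 TPM and became 4.39 with 0.1 TPM, so it is no measure of the fold, and no ratio of means is given. BEX1 also resembles BEX2: the transcripts were 88.02% identical over 84.03% of BEX1, and 3.19% of the 50-base words of BEX1 occur in BEX2. The BEX1 level was 0% and 2.28% of the BEX2 level in DMSO and 2.79% and 3.15% after JG342, and how many of its reads come from BEX2 was not tested. BEX2 and BEX4 shared 4 such words, or 0.313% of those of BEX4.

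BEX5 (NM_001012978), a little-studied member, measured 21.2 and 24.4 TPM in DMSO and 28.2 and 39.9 TPM in JG342. The groups did not overlap, but the JG342 libraries were further apart than the nearest libraries of opposite groups. The ratio of means was 1.496 and the log2 fold change 0.54 ± 0.17 SE, at 0.30 without JG342 replicate 2 and 0.79 without JG342 replicate 1.

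BEX3 (NM_001282674), the other member that binds NGFR, measured 5.15 and 6.78 TPM in DMSO and 2.06 and 5.51 TPM in JG342. JG342 replicate 1 was low, while JG342 replicate 2 lay within the DMSO range. The log2 fold change of −0.63 ± 0.32 SE became −0.09 without JG342 replicate 1 and −1.18 without JG342 replicate 2, so 1 library decides its size. BEX1 and BEX3 had the second most alike promoters, but as the BEX3 groups overlapped, no contrast in sign is drawn between them. Whether promoter likeness bears on these values was not tested.

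Among the TCEAL members, TCEAL4 stood apart. TCEAL4 (NM_001006935), like its relatives a gene of uncertain function, measured 41.8 and 50.7 TPM in DMSO and 82.1 and 107.9 TPM in JG342. Every JG342 library was above every DMSO library, and same-numbered libraries shifted alike, by 0.96 and 1.07 on the log2 scale. The ratio of means was 2.05 and the log2 fold change 1.02 ± 0.15 SE. TCEAL4 and TCEAL2 transcripts were 86.99% identical over 45.9% of TCEAL4, but TCEAL2 was low, between 1.46 and 2.79 TPM in the 4 libraries.

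TCEAL8 (NM_001006684) measured 54.5 and 56.5 TPM in DMSO and 67.2 and 55.4 TPM in JG342. The groups overlapped, and the pairs went in opposite directions, 0.30 for the libraries numbered 1 and −0.03 for those numbered 2. TCEAL9 (NM_001006612), the protein also called WBP5, measured 14.1 and 14.3 TPM in DMSO and 11.0 and 9.61 TPM in JG342. Its libraries did not overlap, with JG342 lower by −0.43 ± 0.14 SE on the log2 scale and a ratio of means of 0.727.

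As a count, 4 of the 8 members (BEX1, BEX2, BEX4 and TCEAL4) were past a limma adjusted p of 0.05 as higher, where 10.8% of all fitted genes were, and 0 were past it as lower, where 7.62% were. Without BEX1, which reached the filter only through JG342, the count is 3 of 7. At an unadjusted limma p under 0.05 the counts were 5 higher (18.7% of fitted genes) and 1 lower (14.9%). Because the contrast chose the set, nothing is read from these counts. Both JG342 libraries lay above both DMSO libraries for 5 members (34.0% of fitted genes) and below them for 1 (28.2%), so 6 of 8 did not overlap (62.1%) and 2 did. With the replicate number as a block, which leaves fewer residual degrees of freedom, 7 members passed, where 34.9% of fitted genes did. BEX5 joined as higher and BEX3 and TCEAL9 as lower, although the BEX3 libraries overlapped between treatments. The median log2 fold change was 0.78 over the members and 0.03 over all fitted genes.

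**Figure D2:**
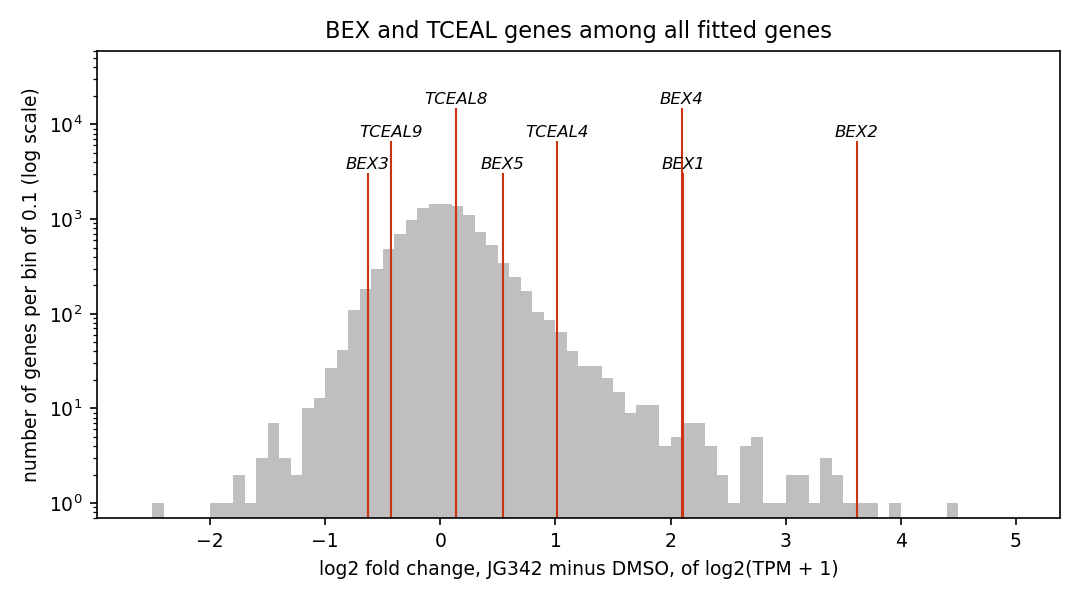
Histogram of the log2 fold change (JG342 minus DMSO) of the 12042 fitted genes, with the number of genes per bin on a log axis and red lines at the BEX and TCEAL genes. BEX2 at 3.62 lies at the far right end, BEX1 and BEX4 lie near 2.1 at this pseudocount of 1 TPM (4.39 and 2.29 at 0.1 TPM), and TCEAL8 at 0.14 lies in the bulk of genes.

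In sum of TPM, the 8 genes went from 150.9 and 167.7 in DMSO to 349.9 and 371.9 in JG342. BEX2 made up 5.54% and 6.54% of this sum in DMSO and 37.8% and 33.8% in JG342. TCEAL8, the leading gene in DMSO, went from 36.1% and 33.7% of the sum to 19.2% and 14.9%, although its own level overlapped between treatments. Both pairs of libraries had this shift in make-up, which is a description only, because the BEX2 rise in these libraries chose the set.

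**Figure D3:**
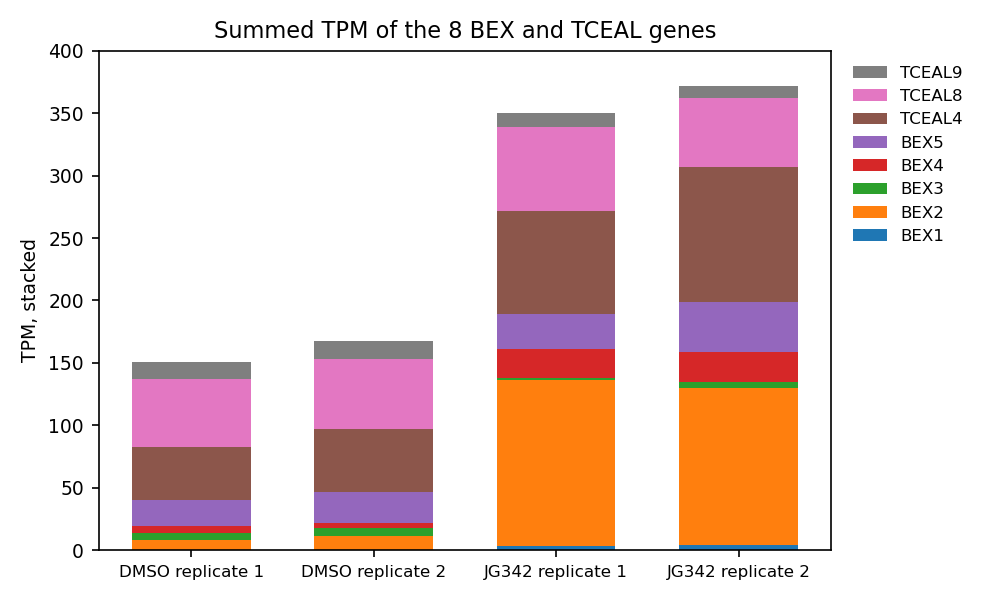
Stacked bars of the TPM of the 8 BEX and TCEAL genes in each library, from 0 on a linear axis. The DMSO bars reach 150.9 and 167.7 TPM and the JG342 bars 349.9 and 371.9 TPM, and BEX2 (orange) accounts for most of the added height.

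The remaining TCEAL genes and the ARMCX genes of the same cluster were compared with limma over all fitted genes, with Benjamini-Hochberg adjustment. Of the 6 other TCEAL genes 3 were in the table and fitted, and 1 was called higher, where 10.8% of all fitted genes were. TCEAL1 measured 12.6 and 13.4 TPM in DMSO and 22.1 and 18.3 TPM in JG342 (0.59 ± 0.14 SE, limma adjusted p 0.0206). TCEAL3, at 0.45 ± 0.14, missed the threshold (limma adjusted p 0.0626) but passed with the replicate block (0.00820), and TCEAL2 had 0.24 ± 0.24. The TCEAL1 call was lost without either DMSO replicate, without JG342 replicate 1 and without the filter on low values, with limma adjusted p up to 0.107.

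Of 9 ARMCX and GPRASP genes, which encode armadillo-repeat and receptor-sorting proteins, 8 were in the table and only ARMCX3 and ARMCX6 were high enough to be fitted. Both rose. ARMCX3, whose product sits on the outer mitochondrial membrane, measured 41.6 and 40.7 TPM in DMSO and 62.5 and 53.3 TPM in JG342 (0.48 ± 0.12 SE, limma adjusted p 0.0225). ARMCX6 measured 28.7 and 31.99 TPM in DMSO and 40.7 and 41.1 TPM in JG342 (0.42 ± 0.11 SE, limma adjusted p 0.0342), and 36.8% of its transcript is identical to the pseudogene ARMCX7P. The ARMCX6 call was lost without any 1 of the 4 libraries and after median scaling, and the ARMCX3 call without either DMSO replicate and without JG342 replicate 1. Both were also lost without the filter on low values (limma adjusted p 0.0759 for ARMCX6 and 0.0730 for ARMCX3) and without the mean-variance trend (0.0674 and 0.0590).

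Taking the 15 protein-coding genes on each side of the outermost members and those in between, in RefSeq order, gave 45 neighbours, including the TCEAL and ARMCX genes above. Of these, 34 were in the table and 20 were fitted. With limma, 4 were called higher (10.8% of all fitted genes) and 2 lower (7.62%), with a median log2 fold change of 0.10. Besides TCEAL1, ARMCX3 and ARMCX6, ZMAT1, a zinc finger gene, rose from 6.64 and 4.87 TPM to 16.9 and 14.7 TPM (1.32 ± 0.17 SE, limma adjusted p 0.00192). GLA, the lysosomal alpha-galactosidase, fell from 81.0 and 68.8 TPM to 45.0 and 31.9 TPM (−0.96 ± 0.16 SE, limma adjusted p 0.00572), a call lost without the filter on low values (limma adjusted p 0.0605). TMSB15A, a thymosin that binds actin, fell from 35.2 and 40.4 TPM to 24.2 and 23.95 TPM (−0.63 ± 0.12 SE, limma adjusted p 0.00926). Its call was lost without DMSO replicate 2. The neighbour TMSB15B, which was not called (−0.22 ± 0.13 SE), matches 29.2% of the TMSB15A transcript at 95% identity, and sharing of reads was not tested.

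**Figure D4:**
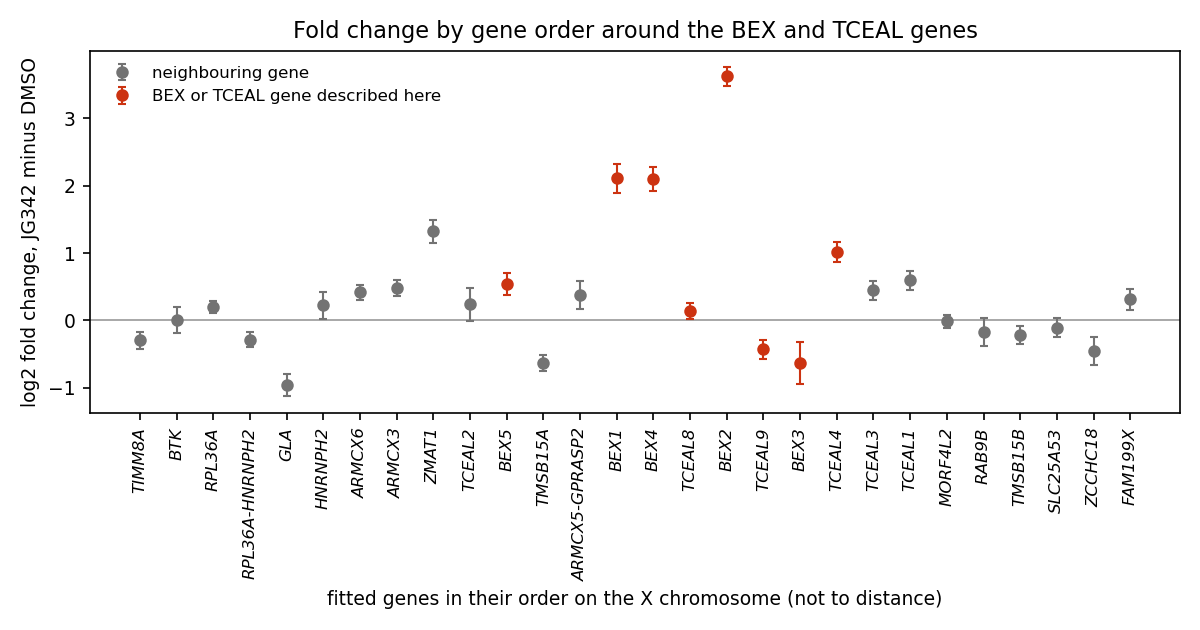
Log2 fold change (JG342 minus DMSO) with its standard error for each fitted gene, placed by gene order on the X chromosome and not by distance; red points are the 8 BEX and TCEAL genes and grey points their neighbours. BEX2 at 3.62 had TCEAL9 at −0.43 and TCEAL8 at 0.14 as the nearest fitted genes on either side. BEX1 at 2.11 and BEX4 at 2.10, next to each other among the fitted genes, had like values at this pseudocount of 1 TPM.

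Lists were also drawn up for the pathway of NGFR, for the LMO2 complex and for the TFIIS and elongin genes. Most of the listed genes are not themselves described here as partners of BEX or TCEAL proteins. In the neurotrophin receptor pathway 15 of 19 genes were in the table and 10 were fitted. Limma called 0 of them higher (10.8% of all fitted genes were) and 0 lower (7.62%). At an unadjusted limma p under 0.05, 1 was higher (18.7% of all fitted genes) and 0 were lower (14.9%). The receptor NGFR itself, the partner of BEX1 and BEX3, was listed at 0 and 0.06 TPM in DMSO and 0.53 and 0.06 TPM in JG342. MAGED1, an adaptor of NGFR, was plentiful, at 111.9 and 113.5 TPM in DMSO and 100.7 and 96.7 TPM in JG342. For the LMO2 complex, 8 of 9 genes were in the table, 4 were fitted and limma called 0. At an unadjusted limma p under 0.05, 2 were higher and 0 lower, against the same shares of all fitted genes. LMO2 itself was the listed gene that had no row, so its level is not known here. Its relative LMO4 measured 72.5 and 58.98 TPM in DMSO and 97.5 and 79.1 TPM in JG342 (0.42 ± 0.14 SE, limma adjusted p 0.0654; 0.000140 with the replicate block). With that block, 1 of the 10 fitted genes of the neurotrophin receptor list and 2 of the 4 of the LMO2 list were called, where 34.9% of all fitted genes were.

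For TFIIS, after which the TCEAL genes are named, and the elongins, 7 of 8 listed genes were in the table and fitted. With limma 2 rose (10.8% of all fitted genes did) and 0 fell (7.62%). At an unadjusted limma p under 0.05, 2 were higher (18.7%) and 0 lower (14.9%). The median log2 fold change was −0.05. TCEA1, which encodes TFIIS itself, the factor that restarts stalled RNA polymerase II, went from 130.4 and 164.9 TPM to 376.8 and 429.97 TPM, with no overlap (1.45 ± 0.13 SE, limma adjusted p 0.000241). A pseudogene, TCEA1P2, matches 31.7% of its transcript at 99.7% identity. TCEA2, a second TFIIS gene, went from 7.72 and 7.11 TPM to 12.3 and 11.9 TPM (0.64 ± 0.14 SE, limma adjusted p 0.0166), a call lost without either DMSO replicate, without JG342 replicate 1 and without the filter on low values (limma adjusted p up to 0.111).

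The genes whose profiles were closest to that of BEX2 were found by the root mean square distance of log2(TPM + 1) over the 4 libraries, each gene taken relative to its DMSO mean. This describes 4 libraries and mostly ranks genes by an equal rise. The nearest 5 were TRIB3, a pseudokinase, at a distance of 0.24, RCAN2, a calcineurin regulator, at 0.26, SYTL1, a vesicle transport protein, at 0.27, GDF15, a secreted stress factor, at 0.31, and ASS1, the argininosuccinate synthase, at 0.32. At a pseudocount of 1 TPM their log2 fold changes ran from 3.30 for GDF15 to 3.93 for SYTL1; at 0.1 TPM they ran from 3.37 for TRIB3 to 5.21 for RCAN2, with GDF15 at 5.13. RCAN2 and GDF15 started from 0.32 TPM or less in DMSO, whereas TRIB3 started from 27.5 and 44.4 TPM. Of the other members, BEX1 was the 43rd and BEX4 the 48th most alike, and TCEAL4 was the 267th.

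The samples as a whole had TPM totals between 994463 and 994718 and, by the same estimate, between 8610000 and 9580000 reads. Over all fitted genes limma called 2221 (18.4%), 1304 higher and 917 lower; with the libraries scaled to equal medians the split was 966 higher and 1200 lower. All 10 plasma cell markers listed were present, with sums of 15116 and 14838 TPM in DMSO and 10940 and 10251 TPM in JG342, mostly from JCHAIN. The list moved both ways by limma: IRF4 (0.77, adjusted p 0.000986) and PRDM1 (0.36, adjusted p 0.0410) rose, and JCHAIN (−0.86, adjusted p 0.00117) and TNFRSF17 (−0.44, adjusted p 0.0472) fell. Since BEX genes are known from neurons, neuronal markers were also listed: 9 of 10 were in the table, with sums of 1232, 1300, 1212 and 1219 TPM (DMSO, then JG342) that were almost all UCHL1, while STMN2, ELAVL4 and GAP43 did not exceed 0.18 TPM in any library. MAP2, a microtubule protein of dendrites named here after its value was seen, rose from 1.93 and 2.11 TPM to 21.6 and 22.7 TPM (2.94 ± 0.15 SE, limma adjusted p 3.03e-05). Summed markers of T cells (10.1 to 14.8 TPM), monocytes (37.4 to 46.3 TPM, mostly LYZ) and stromal cells (0.80 to 1.39 TPM) overlapped between treatments for T cells and monocytes, and stromal markers were lower in both JG342 libraries; of these genes limma called 1, the T cell gene CD3G, which rose by 0.80 on the log2 scale (adjusted p 0.0152). The other fitted T cell gene, CD3E, was at −0.55 (limma adjusted p 0.132; 0.00753 with the replicate block). Whether the cells that gave these markers bear on the BEX and TCEAL values was not tested. In RNA from a whole culture, fewer cells that express a gene and less RNA per cell cannot be told apart.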

How the data were processed

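The authors deposited 1 table with a TPM value per gene and library; the unit was taken from the values, whose totals per library lie between 994463 and 994718. The submitters' processing notes name HISAT2 2.0.4, Bowtie2 2.2.5 and RSEM 1.2.12, with no role; the genome build, annotation and read length are not given in the sources used here. TPM is not a count, so values were tested as log2(TPM + 1) with limma 3.58.1 in R 4.3.3 (lmFit, eBayes with a mean-variance trend, treatment as the only term, two-sided, Benjamini-Hochberg over the 12042 genes whose mean reached 1 TPM, threshold 0.05). In simulated data with shifts of 1 or 2 on the log2 scale, the fit recovered 96.9% of 195 changed genes, and 6.44% of its calls were false. The simulated libraries were independent and held far fewer changed genes than were called here, so these rates may not hold for the real libraries.

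The members and lists were chosen with earlier results of these data known. Genes were named by rule: all 8 members, up to 4 called genes of each list by size of change, and the 5 nearest to BEX2; MAP2, CD3G, CD3E, JCHAIN, IRF4, PRDM1, TNFRSF17, UCHL1, LYZ, STMN2, ELAVL4, GAP43, LMO4, MAGED1, NGFR, TCEAL2 and TCEAL3 were added after their values were seen. Whether the duplicates came from separate cultures is stated only as biological duplicate, so p-values measure the spread between these libraries. Same-numbered libraries share a prefix in their descriptions and their deviations from the treatment means correlated across genes with an r of 0.27, so the replicate number was used as a block in an alternative fit. Reads per library were estimated from the most frequent value of TPM times transcript length (GENCODE release 29) among low genes and entered no test. Sequences came from RefSeq for GRCh38.p14; near copies were searched with BLAST 2.17.0 and promoters aligned with Biopython 1.88. With 2 libraries per group, standard errors of the fit without the block rest on 2 residual and 6.89 prior degrees of freedom. The block leaves fewer residual degrees of freedom. A limma adjusted p such as 5.08e-209 for BEX2 with the block requires that spread pooled over genes outweighs each gene's own. Calls with the block are therefore less cautious than those without it.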

Additional observations from a re-analysis of the deposited data

Results flagged for a closer look

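A total of 3 genes of the X chromosome cluster fell below the filter on low values but had both JG342 libraries above both DMSO libraries and above the worth of 3 reads, a limit that covers counting error only. ARMCX2 averaged 0.49 TPM in JG342 (0.48 and 0.50), against 0.07 and 0.08 TPM in DMSO, with 3 reads worth up to 0.258 TPM. ARMCX5 averaged 0.71 TPM in JG342 (0.69 and 0.73), against 0.28 and 0.16 TPM in DMSO. RAB40A averaged 1.17 TPM in JG342 (1.28 and 1.06), against 0.48 and 0.65 TPM in DMSO. Only rises were flagged. ARMCX1, also below the filter, went the other way, at 0.40 and 0.61 TPM in DMSO and 0 and 0.19 TPM in JG342. So did TMEM31, at 0.31 TPM in both DMSO libraries and 0 TPM in both JG342 libraries. Among fitted genes, 34.0% had both JG342 libraries above both DMSO libraries and 28.2% had both below. None of the genes named here was in the fit, and these differences were not tested.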

How the results depend on the processing

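The members' values chose the set, so how their counts held is a description and no support; a minimum mean of 5 TPM removed BEX1 and BEX3. With the replicate block, 4207 genes passed (2316 higher and 1891 lower), 7 members (2 of them lower) and 14 listed genes; with the block and median scaling, 3985 passed (2310 lower), again 7 members (2 lower), and 15 listed genes, against 8 listed genes without the block. Median scaling and quantile normalization each added 1 member as lower, TCEAL9. Without the filter on low values 828 genes passed (533 higher and 295 lower) and 4 listed genes; without the mean-variance trend 526 passed as lower. Leaving out 1 library at a time gave 767 to 1825 genes (575 to 1107 higher and 192 to 718 lower), 4 to 5 members (0 to 1 lower) and 3 to 8 listed genes; the fewest genes came without DMSO replicate 2 (767) and DMSO replicate 1 (1046). The TCEAL8 value turned to −0.0014 without JG342 replicate 1. By Pearson's r in place of distance, 0 of the 5 genes nearest to BEX2 were shared. The causes were not tested. BEX1 and BEX3 rest on about 25 reads or fewer per library.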
